A study of Mus musculus with 7 samples.

Results

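The genes described here encode the signalling chains, co-receptors and other surface or B cell-restricted proteins by which B lymphocytes are recognised: Cd79a, Cd79b, Ms4a1, Cd22, Fcmr (older symbol Faim3), Fcrla, Blk, Cr2 and Pax5. Every probe carrying the current or an older symbol of these 9 genes was taken, which gave 18 probes of the 25697 on the array. For 6 of the 9 genes, at least 1 probe was bright enough to be tested, 9 probes in all. Ms4a1, Cr2 and Pax5 were below that limit, so the tested genes are not the whole set.

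The study measured RNA of whole lung from mice lacking claudin 18, a tight junction protein of alveolar epithelium, on Illumina MouseRef-8 v2 bead arrays. The knockout samples, on 3 arrays, carried Cldn18 with exons 2 and 3 removed, made by crossing a floxed allele (Cldn18F/F) to a CMV-cre deleter line, so the deletion was not limited to 1 cell type. The wild-type samples, on 4 arrays, came from mice of the same mixed background, in which Balb/c, C57BL/6J and 129S6/SvEvTac were combined. All animals were untreated males aged 3 to 4 months. The labels do not state that each array was a separate animal, so the p-values reflect spread among these arrays alone, which may be technical. Where lungs are counted or compared below, each stands for 1 array. Whether the lungs were perfused, which bears on how much blood they held, is not given in the sources used here.

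All 7 arrays lay on 1 slide, the knockout samples at 3 positions and the wild-type samples at 4 others, so position and genotype cannot be told apart. Between 10291 and 11715 probes were detected (detection p under 0.01) on the knockout arrays, against 11211 to 12376 on the wild-type arrays. Median raw signals were 259 to 349 in the knockout and 355 to 469 in the wild type. Tests used background-corrected, quantile-normalized log2 levels. Cldn18 itself had a signal of 1280 ± 517 in the knockout and 20112 ± 5643 in the wild type (SD, n = 3 and 4). Of 11902 probes tested, 472 were higher and 584 lower in the knockout (limma, Benjamini-Hochberg adjusted p under 0.05). Scaling each array to its median in place of quantile normalization gave 217 higher and 726 lower, and moved the median change of all probes to -0.14, against 0.02 (log2).

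The B cell receptor is a membrane immunoglobulin paired with the CD79A and CD79B proteins, whose cytoplasmic tails are phosphorylated by Src family kinases such as BLK when antigen binds. Complement receptor 2 lowers the threshold for this signal, and CD22 and other inhibitory receptors raise it. In the lung, B cells are found in the blood of its vessels, scattered in the tissue and in lymphoid aggregates beside the airways. RNA of whole lung cannot tell fewer B cells from less of a transcript per B cell.

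Of the 6 genes that could be tested, 3 were lower in the knockout lungs, namely Cd79a, Fcmr and Fcrla, and none was higher. The brightest probes fell 3.04-fold (Cd79a, detected on 2 of 3 knockout arrays) and 4.78-fold (Fcmr, detected on all 3). The fitted fold of Fcrla was 4.73, but its brightest probe was detected on only 1 of 3 knockout arrays, so this is not a fully measured fold. Cd79b and Blk had lower mean levels in the knockout and Cd22 a higher one, none past the threshold. The authors' values gave smaller changes in the same direction, at -0.41 for the brighter Cd79b probe, -0.19 for Blk and 0.17 for Cd22. Across the 8537 genes tested, 5.11% were lower and 3.68% higher in the knockout by the same rule. The median log2 change was -1.26 over the 6 genes, 5 of them below 0, and 0.01 over all genes tested. Counted by probe, 5 of 9 were lower, against 4.91% of all probes tested. Of these 5, only the Fcmr probe was detected on all 3 knockout arrays. The Cd79a probe and the 3 Fcrla probes reached the test only with the wild-type arrays, where they are high. Of the Fcrla probes, 2 were detected on no knockout array. The counts and the median therefore describe the tested genes and support nothing further.

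**Figure D1:**
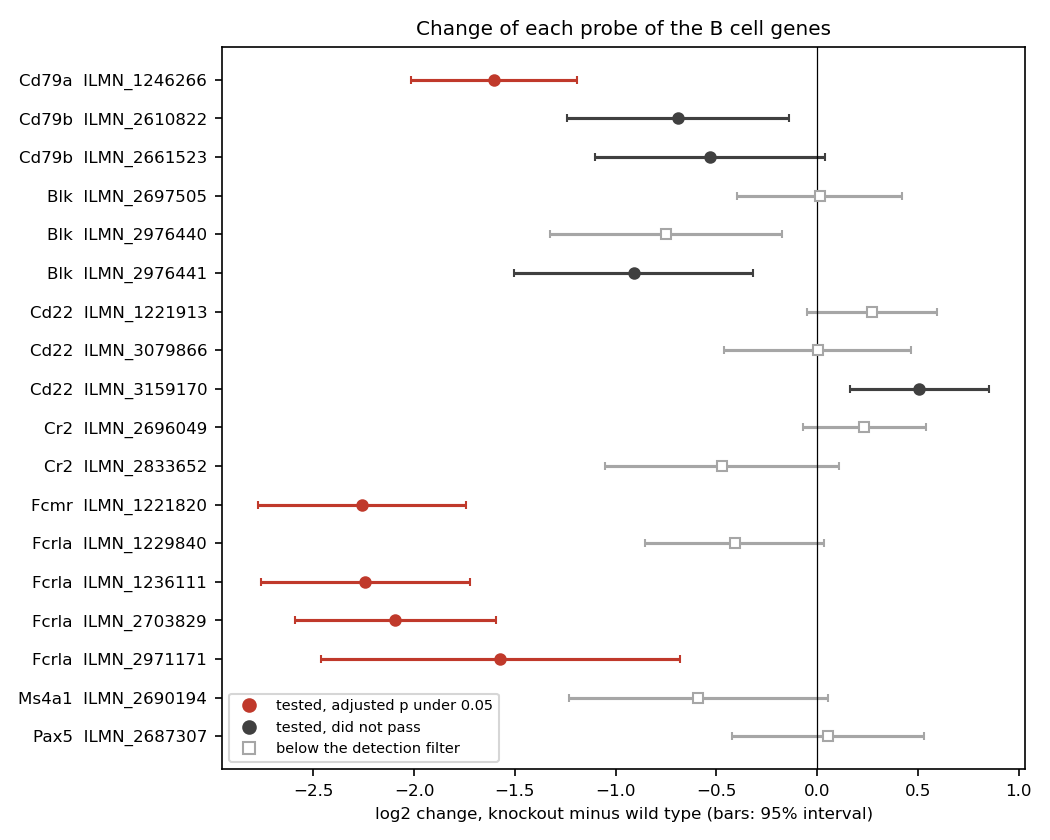
Difference in normalized log2 level, knockout minus wild type, for each probe of the 9 genes, with the 95% confidence interval of the limma fit; red circles mark tested probes past an adjusted p of 0.05, dark circles tested probes that did not pass, and open squares probes too dim to test, from the fit without a filter. The Fcmr probe lies at -2.26 and the tested Cd22 probe at 0.51. The Fcrla probes ILMN_2703829 and ILMN_2971171 were detected on no knockout array, so that their plotted changes are fitted values only. ILMN_2703829 was at least 1.45-fold lower. For ILMN_2971171, which was not detected on wild type 4 either, the bound of 1.09-fold is not strict.

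The 3 genes that fell lie on chromosomes 7 (Cd79a) and 1 (Fcmr and Fcrla). Promoter windows, the 250 bases before the gene start in RefSeq (GRCm38.p6), were held for 6 of the 9 genes, namely Cd79a, Cd22, Fcmr, Fcrla, Cr2 and Pax5. Those of the 3 genes that fell are shown because a short motif, GAGGAA, the core bound by the myeloid and B cell factor PU.1, was present in each (as its reverse complement TTCCTC) and in none of the other 3. Capitals mark that motif and the E-boxes CAGCTG and CAGGTG, the kind of site bound by E2A. Both strands were searched, and each window is printed on its gene's strand, 5′ to 3′.
Cd79a, chr7:24897247-24897496, plus strand: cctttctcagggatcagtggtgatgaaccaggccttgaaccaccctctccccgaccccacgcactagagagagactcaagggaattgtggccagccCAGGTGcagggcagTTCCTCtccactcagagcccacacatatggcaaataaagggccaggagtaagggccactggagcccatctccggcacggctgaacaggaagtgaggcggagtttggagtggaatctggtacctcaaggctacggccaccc
Fcmr, chr1:130865527-130865776, plus strand: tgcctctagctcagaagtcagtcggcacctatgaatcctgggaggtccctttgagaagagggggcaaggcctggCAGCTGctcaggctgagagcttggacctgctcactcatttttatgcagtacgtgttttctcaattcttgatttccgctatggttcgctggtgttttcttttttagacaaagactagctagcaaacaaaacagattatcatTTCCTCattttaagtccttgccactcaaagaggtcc
Fcrla, chr1:170927584-170927833, minus strand: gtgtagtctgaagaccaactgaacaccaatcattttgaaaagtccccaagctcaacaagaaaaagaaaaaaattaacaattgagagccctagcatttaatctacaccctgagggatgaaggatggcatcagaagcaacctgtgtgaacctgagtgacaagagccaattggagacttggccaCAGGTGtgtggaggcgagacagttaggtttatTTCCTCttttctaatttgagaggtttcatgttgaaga
The PU.1 core began 140 bases before the start in Cd79a, 36 in Fcmr and 37 in Fcrla. It was held by 23.3% of all 32851 promoter windows of this length. Of the other 3 windows, only that of Cd22 belonged to a tested gene, and the tested genes Cd79b and Blk had no window. The motif is shown because it split the windows in this way, so the split supports nothing further. CAGGTG stood 154 bases before the start in Cd79a and 69 in Fcrla, and was held by 17.2% of all windows, also by those of Cd22 and Cr2. CAGCTG stood 176 bases before the start in Fcmr and was held by 13.0% of all windows. The octamer ATGCAAAT (1.6% of all windows) was in none of the 6. For the B cell factor EBF, only a strict form of its motif was searched, one that reads the same on both strands. That form (0.779% of all windows) was found in the Cd22 window. Sites that depart from it were not searched, so its absence from the other windows, that of Cd79a included, does not show that they lack an EBF site. No motif overlapped another. A match describes the letters in these windows, not binding.

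Cd79a, the alpha signalling chain of the receptor, had raw signals of 457, 313 and 349 in the 3 knockout lungs, against 958, 876, 879 and 927 in the 4 wild-type lungs. The groups did not overlap, and the wild-type arrays lay close together. Normalized log2 levels were 7.52, 7.45 and 7.18 in the knockout and 8.74, 9.32, 8.94 and 8.95 in the wild type. The difference was -1.60 ± 0.18 (log2, SE; 95% interval -2.02 to -1.19; limma adjusted p = 0.00168). The probe was detected on 2 of 3 knockout arrays and on all 4 wild-type arrays. In an exact two-sided permutation test over the 35 ways of assigning 7 arrays, p was 0.0286, the smallest this design allows. Levels of all knockout arrays lay below those of all wild-type arrays for 12.4% of all probes tested, so such a separation is common here. With the authors' log2-like values the difference was -0.61 (adjusted p = 0.0050), smaller than from the raw signals but past the threshold.

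Cd79b, the beta chain that pairs with CD79A, was measured by 2 probes, neither past the threshold. The brighter (ILMN_2610822) had raw signals of 928, 525 and 486 in the knockout, against 1595, 1302, 1324 and 991 in the wild type. Its normalized levels, 9.23, 9.06 and 8.69 in the knockout and 9.81, 10.11, 9.71 and 9.10 in the wild type, overlapped, since wild type 4 lay below knockout 1. The difference was -0.69 ± 0.25 (log2, SE; interval -1.24 to -0.14; limma adjusted p = 0.113). Without wild type 4 it was -0.89 (adjusted p = 0.0404), so that 1 library decided the call. The other probe (ILMN_2661523) gave -0.53 ± 0.26 (adjusted p = 0.226), and here too the normalized levels overlapped through wild type 4. The interval of the brighter probe lay above -1.60, the estimate for Cd79a. The difference between the changes of these paired chains was not tested.

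Blk, a Src family kinase largely restricted to B cells, had 1 of 3 probes bright enough to test. That probe (ILMN_2976441) had raw signals of 381, 247 and 298 in the knockout and 661, 401, 446 and 507 in the wild type. It was detected on 1 of 3 knockout arrays and 3 of 4 wild-type arrays, so it reached the test only with the wild-type arrays. The normalized levels did not overlap, at 6.82, 6.12 and 6.00 in the knockout and 7.77, 7.05, 7.21 and 6.88 in the wild type. Of all probes tested, 12.4% were separate in this direction. The difference of -0.91 ± 0.26 (log2, SE; interval -1.50 to -0.32) missed the threshold (limma adjusted p = 0.0617). Without knockout 1, it was -1.16 with an adjusted p of 0.0367. Another probe (ILMN_2976440), detected on 1 wild-type array, changed by -0.75 (adjusted p = 0.165 in the fit without a filter), and the last (ILMN_2697505), detected on no array, by 0.01.

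Fcmr, the Fc receptor for IgM, was measured by 1 probe. Its raw signals were 654, 360 and 388 in the knockout lungs, against 2493, 1779, 1728 and 1506 in the wild-type lungs. The brightest knockout lung was far below the dimmest wild-type lung. The probe was detected on all 7 arrays, so both ends of the comparison were measured. Normalized levels were 8.47, 8.02 and 7.80 in the knockout and 10.60, 10.66, 10.18 and 9.97 in the wild type. The difference was -2.26 ± 0.23 (log2, SE; interval -2.77 to -1.74; limma adjusted p = 0.00116), with an exact permutation p of 0.0286. Knockout levels all below wild-type levels, as here, were seen for 12.4% of all probes tested. The authors' values gave -1.27 (adjusted p = 0.00212).

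Fcrla, an Fc receptor-like protein that stays inside B cells, had 4 probes, of which 3 were tested and passed as lower. They target the same gene, and all 3 were tested only because the wild-type arrays, where they are high, detected them. They are not separate support. ILMN_1236111 had raw signals of 402, 265 and 317 in the knockout and 1087, 904, 798 and 803 in the wild type. It was detected on 1 of 3 knockout arrays and all 4 wild-type arrays. Its levels did not overlap, as for 12.4% of all probes tested in this direction. The difference was -2.24 ± 0.23 (log2, SE; limma adjusted p = 0.00121), and -0.74 with the authors' values (adjusted p = 0.00497).

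The other two tested Fcrla probes were not detected on any knockout array, so only a bound on their fold can be given there. The bound sets the wild-type mean against the lowest detected level of each knockout array, or the probe's own level where that is higher. ILMN_2703829 had raw signals of 292, 220 and 261 in the knockout and 600, 551, 482 and 551 in the wild type, and was at least 1.45-fold lower (limma adjusted p = 0.00125). ILMN_2971171, at 308, 214 and 275 in the knockout and 599, 501, 480 and 427 in the wild type, also passed as lower (limma adjusted p = 0.0398). It was not detected on wild type 4 either, so its bound of 1.09-fold is not strict. The call for ILMN_2971171 depended on single libraries: it missed the threshold without knockout 1, 2 or 3 (adjusted p = 0.0667, 0.127 and 0.106) and without wild type 1, 2 or 3 (0.0947, 0.0793 and 0.083). It also missed it with the authors' values (0.0882). The remaining probe (ILMN_1229840) was detected on no array.

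**Figure D2:**
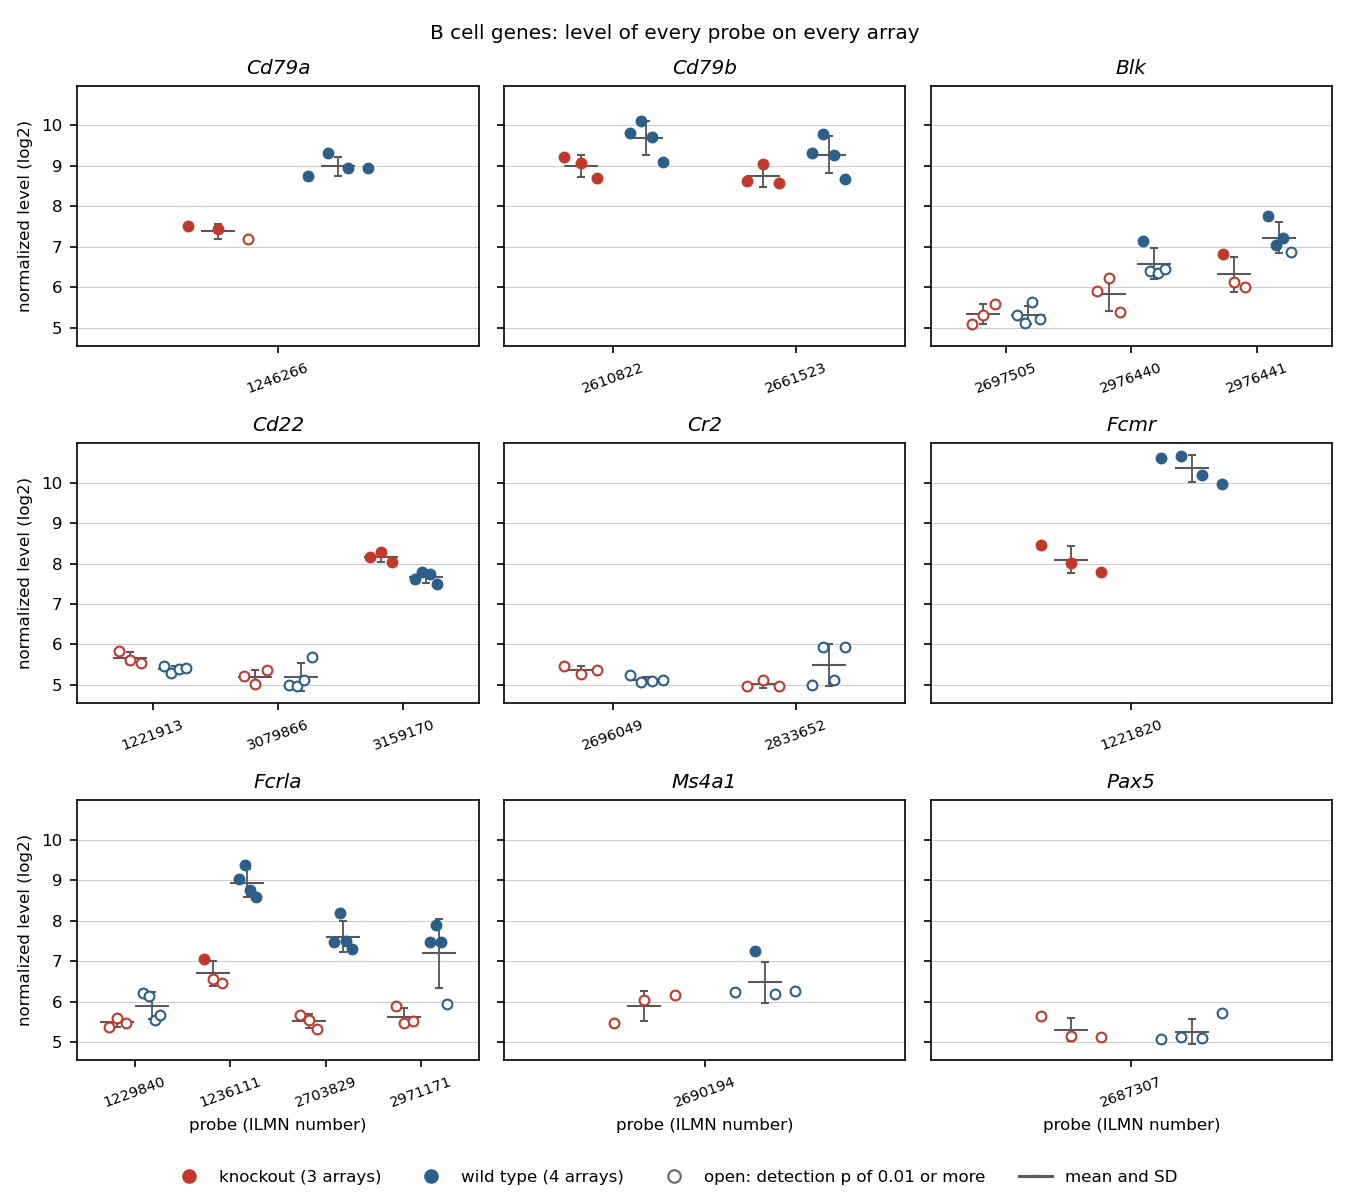
Normalized log2 level of every probe of the 9 genes, with 1 point per array (knockout red and left, wild type blue and right), open where the detection p was 0.01 or more, and bars for the mean and SD of each group. Cd79a, Fcmr and the Fcrla probe ILMN_1236111 separate by genotype with the knockout below, the Cd22 probe ILMN_3159170 lies higher in the knockout, and Cr2 and Pax5 have open points only.

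Cd22, the sialic acid-binding receptor that dampens receptor signalling, went the other way from the rest of the tested genes. Its tested probe (ILMN_3159170) was detected on all 7 arrays, with raw signals of 571, 391 and 410 in the knockout and 627, 487, 526 and 576 in the wild type. The raw signals overlapped and averaged lower in the knockout. After normalization the order turned, with levels of 8.15, 8.28 and 8.05 in the knockout and 7.62, 7.79, 7.73 and 7.49 in the wild type. The difference was 0.51 ± 0.15 (log2, SE; interval 0.16 to 0.85) and missed the threshold (limma adjusted p = 0.0734). Levels of all knockout arrays above all wild-type arrays were seen for 13.3% of all probes tested, and the reverse for 12.4%. The other two Cd22 probes were detected on no array and changed by 0.27 and 0.00 (log2, fit without a filter).

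The remaining 3 genes were at or near background. Ms4a1, which encodes CD20, had raw signals of 275, 243 and 305 in the knockout and 433, 421, 345 and 453 in the wild type, and was detected only on 1 wild-type array. Those raw signals did not overlap, but neither did the median raw signals of whole arrays, which were lower in the knockout. The log2 change in the fit without a filter was -0.59 ± 0.29 (SE, limma adjusted p = 0.315). Cr2, complement receptor 2, was detected on no array by either of its probes, which changed by 0.23 and -0.47 (adjusted p = 0.402 and 0.37). Pax5, the transcription factor that holds cells in the B lineage, was detected on no array, with raw signals of 290, 189 and 241 in the knockout and 304, 255, 242 and 406 in the wild type. For these genes a difference was not detectable at this signal over background, which is not to say that it is absent.

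Over the tested genes with their brightest probes, the summed normalized level was 1198 to 1670 in the 3 knockout lungs and 2733 to 4387 in the 4 wild-type lungs. Centred on each probe's own mean, the average log2 level of the 6 tested genes was -0.42, -0.71 and -0.93 in knockout 1, 2 and 3, and 0.63, 0.76, 0.46 and 0.20 in wild type 1, 2, 3 and 4. Wild type 4 was the wild-type lung nearest to the knockout lungs. The probes followed this average to different degrees: the root-mean-square distance over the 7 arrays was 0.27 for Cd79a, 0.29 each for Cd79b and Blk, 0.53 each for Fcmr and Fcrla, and 0.86 for Cd22. The 2 genes of 0.53 lay further out in the same direction, and Cd22 ran opposite to it. Cd79a, Fcrla and Blk reached the test only with the wild-type arrays, where their levels are higher. The sum and the average therefore describe the tested genes and support nothing further.

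The 5 other genes whose centred levels lay nearest to this average, of 8406 searched, were Gucy1b1, Nid1, Scara5, Gucy1a1 and Rhoj. Gucy1b1 and Gucy1a1 encode the subunits of soluble guanylate cyclase, the nitric oxide receptor of smooth muscle. Nid1 encodes the basement membrane protein nidogen 1, Scara5 a ferritin receptor and Rhoj a small GTPase of endothelium. Their distances were 0.15 for Gucy1b1, Nid1 and Scara5, and 0.16 for Gucy1a1 and Rhoj. Since they were chosen for lying near an average that is itself low in the knockout, their direction and p were set by that choice and are given as a description, with log2 changes of -1.26 (Gucy1b1), -1.05 (Nid1, Scara5 and Gucy1a1) and -0.97 (Rhoj) and adjusted p from 0.00539 to 0.0175. None of the 5 belongs to the B cell lists used here.

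**Figure D3:**
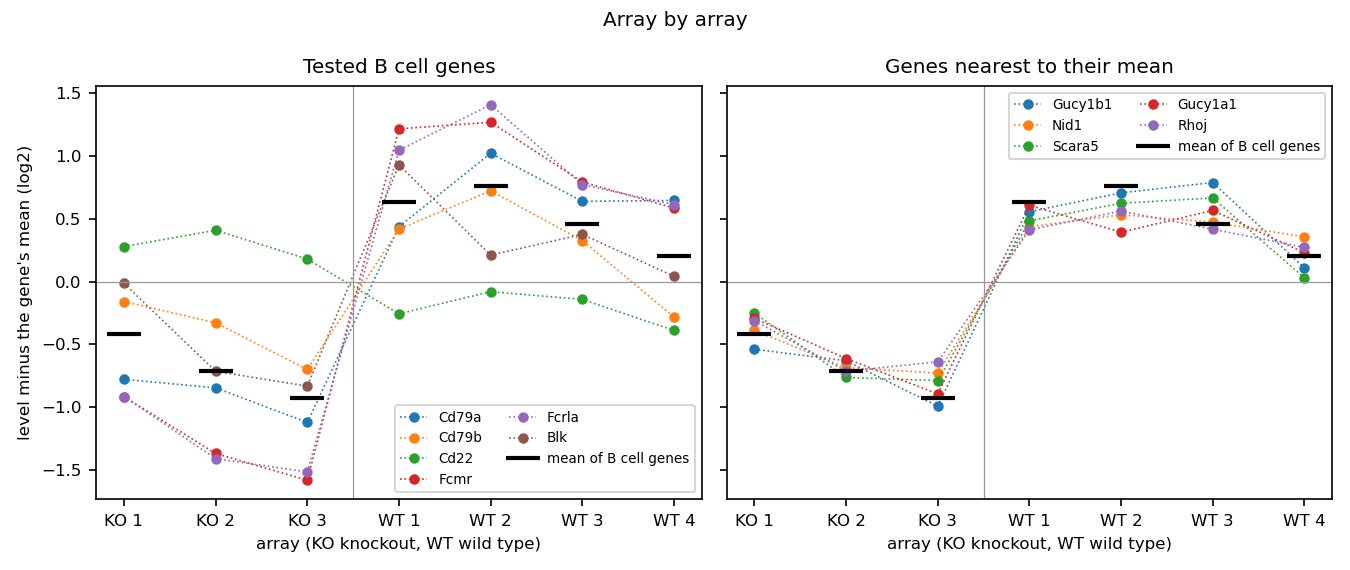
Centred log2 level on each array, knockout arrays left, for the tested genes (left panel) and the 5 nearest other genes (right panel), with the mean of the tested genes as a black bar; dotted lines join the arrays of each gene for reading only, since arrays have no order. The mean lies between -0.93 and -0.42 on the knockout arrays and between 0.20 and 0.76 on the wild-type arrays. It is a description only, since Cd79a, Fcrla and Blk reached the test only with the wild-type arrays.

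Around the receptor, other genes of the B cell were measured through lists of related genes. Of 20 tested genes of the co-receptor and the signalling cascade below the receptor, 2 were lower and 1 higher in the knockout, with a median log2 change of -0.08, against 0.01 over all genes. Rasgrp3, a Ras activator downstream of the receptor, fell by 1.14 (SE 0.17; limma adjusted p = 0.00579). Prkcb, the protein kinase C that links the receptor to NF-kappaB, fell by 0.98 (adjusted p = 0.0122), a call lost without knockout 2 (0.0541) or knockout 3 (0.0504). Hvcn1, a proton channel of B cells, rose by 0.79 (adjusted p = 0.0497), lost without knockout 1 (0.132), knockout 2 (0.197), wild type 1 (0.0897), wild type 2 (0.0972) or wild type 4 (0.0941), and with median scaling (0.224). Its other probe also rose, by 0.74 (adjusted p = 0.0289). Pik3r1, the regulatory subunit of phosphoinositide 3-kinase, changed by -0.69 (adjusted p = 0.0791).

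None of 6 tested genes of receptor inhibition passed the threshold, with a median of 0.16, though 1 passed as lower without knockout 2. Fcgr2b, the inhibitory IgG receptor, changed by 0.68 (adjusted p = 0.0958) and Inpp5d, the phosphatase SHIP1, by -0.67 (adjusted p = 0.104). The 1 tested gene among the immunoglobulin chains and surrogate light chains was Vpreb3, which changed by 0.15 (adjusted p = 0.78). Ighm and Igkc were not analysed here.

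Of 9 tested transcription factors of B cells, 4 were lower and none higher in the knockout, with a median of -0.67. Ets1, a factor of lymphocytes and endothelium, fell by 1.50 (SE 0.20; limma adjusted p = 0.00327). Pou2af1, the octamer co-activator OBF-1 had a signal of 385 ± 103 in the knockout and 782 ± 137 in the wild type (SD, n = 3 and 4). It was detected on 2 of 3 knockout arrays and all 4 wild-type arrays, and fell by 1.15 (adjusted p = 0.00964). Mef2c fell by 0.77 (adjusted p = 0.0213), lost without knockout 2 (0.101) or knockout 3 (0.0788), while its other probe changed by -0.70 (adjusted p = 0.113). Foxo1 fell by 0.69 (adjusted p = 0.0301), lost without knockout 1 (0.0923), knockout 2 (0.131), knockout 3 (0.0614), wild type 3 (0.0557) or wild type 4 (0.063). Ets1, Mef2c and Foxo1 are expressed by other lung cells too. Ebf1 was detected on no array.

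Among 13 tested genes of other B cell surface proteins, 2 were lower and 1 higher, with a median of -0.25. Cd27, a co-stimulatory receptor of memory B cells and of T cells, had a signal of 438 ± 104 in the knockout and 1179 ± 262 in the wild type, and fell by 1.46 (SE 0.22; limma adjusted p = 0.00541). Cd37, a tetraspanin, fell by 0.81 (adjusted p = 0.0327), a call lost without knockout 1, 2 or 3 (0.0972, 0.0983 and 0.0888) and without wild type 2 or 3 (0.0568 and 0.0641). Cd86, a co-stimulatory ligand shared with dendritic cells and macrophages, rose by 1.17 (adjusted p = 0.00541). Cxcr5, the receptor for the follicle chemokine CXCL13, was detected on no knockout array and all 4 wild-type arrays, at least 1.18-fold lower by its bound, and it did not pass (adjusted p = 0.101).

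Of 6 tested genes for signals that recruit or sustain B cells, Cxcl12, a chemokine of stromal cells, was lower in the knockout and none was higher, with a median of -0.34. Cxcl12 changed by -0.60 (adjusted p = 0.0419), but by 0.60 and -0.12 by its other probes, and the call was lost without knockout 1, 2 or 3 (0.0719, 0.194 and 0.0993) or wild type 2, 3 or 4 (0.0787, 0.0996 and 0.0739). Without wild type 1, Ccl21a also passed (0.0386; 0.235 with all arrays). Cxcl13, the follicle chemokine, changed by 0.82 (adjusted p = 0.0563), passing without wild type 3 (0.0362). Tnfsf13b, which encodes the survival factor BAFF, changed by -0.41 (adjusted p = 0.177). Of 5 tested follicular dendritic cell genes, Clu rose by 1.51 (adjusted p = 0.0031) and none fell (median -0.00; 2 higher without wild type 3, 1 lower without wild type 4). Clu is expressed by many cell types.

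Of 6 tested plasma cell genes, 2 were lower and 1 higher, with a median of 0.25. Mzb1, an endoplasmic reticulum protein of marginal zone B cells and plasma cells, had a signal of 1022 ± 257 in the knockout and 3207 ± 856 in the wild type. It fell by 1.20 (limma adjusted p = 0.0316), a call lost without knockout 1 or 2 (0.0915 and 0.119) or wild type 2, 3 or 4 (0.0719, 0.0711 and 0.0736). Tnfrsf17, the receptor BCMA, was detected on no knockout array and on 3 of 4 wild-type arrays, so its bound of 1.34-fold lower is not strict. It passed as lower (limma adjusted p = 0.0199), a call lost without knockout 2 or 3 (0.0809 and 0.062). Sdc1, syndecan 1 of plasma cells and epithelium, rose by 0.80 (adjusted p = 0.0192), lost without knockout 1 or 2 (0.0652 and 0.0983) and with median scaling (0.135). Jchain was detected on no array.

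**Figure D4:**
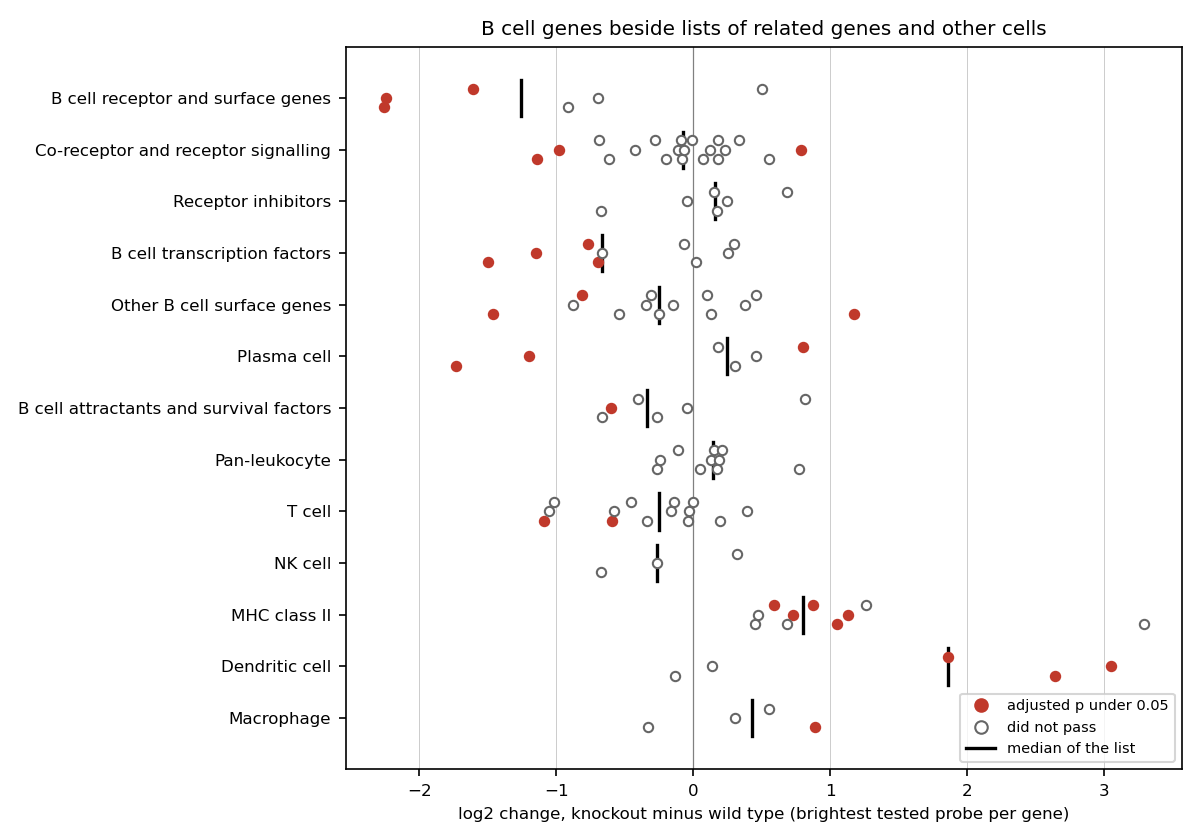
Log2 change, knockout minus wild type, of each tested gene (brightest probe) in the lists of B cell genes and of other cell types, with the median of each list as a bar and genes past an adjusted p of 0.05 filled red. The 6 receptor and surface genes have a median of -1.26, the B cell transcription factors -0.67, the MHC class II genes 0.80 and the dendritic cell genes 1.86.

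Markers of other cells did not all move with the B cell genes. Of 10 tested genes shared by all leukocytes none passed, with a median of 0.14 and a summed normalized level of 77326 to 86915 in the knockout and 68334 to 82711 in the wild type. Ptprc, which encodes CD45, was below the detection limit for testing. Of 14 tested T cell genes, 2 fell, none rose, 12 had an estimate below 0 and the median was -0.25, with summed levels of 6247 to 6896 in the knockout and 7766 to 8279 in the wild type. Cd3e, a chain of the T cell receptor complex, changed by -0.03 (SE 0.18; adjusted p = 0.93), Trat1 by -1.05 (0.144) and Bcl11b by -1.01 (0.0552). The T cell calls were Gata3 (-1.09, adjusted p = 0.0325) and Cd8b1 (-0.59, adjusted p = 0.0456), but Gata3 did not pass without knockout 2 or 3 or wild type 1, 3 or 4 (adjusted p from 0.0654 to 0.132), nor Cd8b1 on leaving out any array but wild type 1 (0.0629 to 0.135). Gata3 and Trat1 were each detected on only 1 of 3 knockout arrays and Bcl11b on 2, so their changes are not fully measured. None of 3 natural killer cell genes passed (median -0.26, summed levels 2063 to 2820 in the knockout and 2398 to 2812 in the wild type).

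Some genes of antigen-presenting cells were higher in the knockout. Of 10 MHC class II genes, all tested, 5 rose and none fell (median 0.80, summed levels 146350 to 167734 in the knockout and 85061 to 102956 in the wild type). H2-Ab1, a class II beta chain that B cells express as well, rose by 0.87 (SE 0.18; limma adjusted p = 0.0173). Its other probes gave 1.34 (0.013), 0.96 (0.00779) and 4.63 (0.206). H2-Aa, a class II alpha chain, was detected on only 2 of 4 wild-type arrays, with a signal of 4430 ± 1550 in the knockout and 3237 ± 3905 in the wild type, and did not pass (adjusted p = 0.199). Leaving out knockout 2 reduced the count to 1, knockout 3 to 2, and wild type 2 or wild type 4 to 3. Of 5 tested dendritic cell genes, Ccl17, Cd207 and Itgae rose by 3.05, 2.64 and 1.86 (median 1.86, summed levels 3965 to 4794 in the knockout and 1128 to 1799 in the wild type). Ccl17 was detected on 2 of 4 wild-type arrays and Cd207 on 3 of 4, so their changes are not fully measured. Of 4 tested macrophage genes 1 rose, Chil3 by 0.89 (adjusted p = 0.0492), a call lost on leaving out any array but wild type 4. Its other probes gave 1.58 (adjusted p = 0.00653) and 0.77 (0.0577). The summed levels of the macrophage list were 19183 to 19964 in the knockout and 9665 to 15112 in the wild type.

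Genes of blood cells varied among the wild-type arrays. None of 8 neutrophil genes passed (median -0.43, summed levels 68553 to 73520 in the knockout and 34257 to 139498 in the wild type), though 1 was lower without wild type 2 or wild type 3 and 1 higher without knockout 1. None of 6 platelet genes passed, all 6 below 0 (median -1.12, summed levels 1358 to 2460 in the knockout and 2132 to 5819 in the wild type), but 5 passed as lower without wild type 3, 1 without knockout 1, 4 with median scaling, 2 with an offset of 50, and 1 each with no background correction, a stricter filter and a variance trend. Of the Ppbp probes, the brighter gave -1.28 (adjusted p = 0.0505) and the other -1.50 (0.0456). Of 4 red cell genes 1 fell, Slc4a1, the band 3 anion exchanger, by 2.64 (SE 0.49; adjusted p = 0.0117; list median -1.28, summed levels 75703 to 80857 in the knockout and 73786 to 101046 in the wild type). Of 9 lung genes, the endothelial Cdh5 and Pecam1 fell by 1.20 and 1.18, while Sftpa1, a surfactant protein, rose by 0.76, a call lost on leaving out any array but wild type 1 or 3 (list median 0.12, summed levels 333074 to 348117 in the knockout and 285644 to 312521 in the wild type). The part of blood content, endothelium or the other cells in the B cell gene differences was not tested.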

How the data were processed

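RNA of whole lung was hybridised to Illumina MouseRef-8 v2 arrays, 3 for the knockout and 4 for the wild type. The deposited table used for testing holds, per the file headers, a linear probe intensity and a detection p-value for each array, not normalized. A second deposited table holds the authors' normalized log2-like values, made with lumi 1.14.0 and R 2.11.1 per the submitters' processing notes. Their exact transformation is not given in the sources used here, and they served as an alternative. No column was left unused.

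Intensities were background-corrected and quantile-normalized with neqc of limma 3.58.1 (R 4.3.3; offset 16, with the background's mean and SD estimated through detection p) and put on the log2 scale. Probes detected at p under 0.01 on 3 or more arrays were tested with lmFit and eBayes, two-sided, with Benjamini-Hochberg adjustment over 11902 probes at 0.05. The fit was tested on simulated data. A list counts each gene by its brightest tested probe, and a summed level adds the normalized levels as linear values. Intervals are 95% confidence intervals of the difference between the groups, from the limma fit, and reflect the spread between arrays. The number of arrays limits the precision. Tables and figures were made with Python 3.11.15, pandas 2.3.3 and matplotlib 3.10.9.

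Probes were named through the platform annotation, in which 23978 of 25697 probes have 1 gene symbol, none several and 1719 none. Symbols were updated by Entrez ID for 23962. Named were all probes of the 9 genes, the up to 4 tested genes of each list with the largest change that bear on the text, 12 defining genes and the 5 of nearest pattern. The genes and the lists were chosen with earlier results of these data known. Alternatives changed the offset, background correction, normalization, filter, variance model, replicate block, source table and the arrays included. Proteins were not compared, and knockout replicate 4, which the labels mention, was not analysed here.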

Additional observations from a re-analysis of the deposited data

Results flagged for a closer look

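Each of the 18 probes of the 9 genes was checked in the 4 wild-type arrays for 1 array far from the other three, and 3 probes had one. Chance gives this for about 1 in 20 groups. For the Ms4a1 probe, wild type 2 had a normalized log2 level of 7.24, against 6.20 to 6.25 in the other wild-type lungs, a gap of 0.954 of the whole range. For the Blk probe ILMN_2976440, wild type 1 had 7.14, against 6.34 to 6.45, a gap of 0.858 of the range. For the Pax5 probe, wild type 4 had 5.72, against 5.08 to 5.12, a gap of 0.928 of the range. None of these 3 probes was bright enough to be tested.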

How the results depend on the processing

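The direction of every tested probe of the 9 genes was the same under all 15 alternatives, or the 14 in which the probe could be tested. Alternatives of the filter and the variance model used the same levels and log2 changes, so there the direction was fixed in advance. Cd79a, Fcmr and the Fcrla probes ILMN_1236111 and ILMN_2703829 passed in all 15, at log2 changes of -1.77 to -0.61 for Cd79a, -2.45 to -1.27 for Fcmr and -2.43 to -0.74 for ILMN_1236111; ILMN_2703829 was detected on no knockout array and has only a bound. The smallest sizes came with the authors' values. Both Fcrla probes entered every filtered setting only with the wild-type arrays, where they are high, and ILMN_1236111 was detected on 1 knockout array. Leaving out 1 array in turn gave 3 to 4 genes and 4 to 6 probes lower among the 9 genes, with Blk from -1.16 to -0.73 and Cd79b from -0.89 to -0.54. Over all probes it gave 193 to 533 lower and 140 to 466 higher, the lowest without knockout 2. Median scaling gave 217 higher. Same-numbered knockout and wild-type arrays did not deviate together (correlations of -0.02, -0.00 and -0.14). Of the knockout arrays, 0 of 3 correlated best with their own number. So few arrays cannot exclude that the numbers pair the samples. A replicate block gave 228 probes lower and 173 higher, and Blk at -1.03 (adjusted p = 0.0437). Since wild type 4 has no knockout of its number, the block gave the same log2 changes as leaving wild type 4 out. Their directions are therefore not separate, and without wild type 4 Blk missed the threshold (limma adjusted p = 0.0634). The cause of these changes was not tested. Low signal over background limits what can be said of Ms4a1, Cr2 and Pax5.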
